A study of Arabidopsis thaliana and Medicago truncatula and Solanum lycopersicum with 15 samples.

Results

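Accessible chromatin was described at 10 root hair genes of Arabidopsis thaliana in 8 lists of open regions. The genes were selected by name as genes of root hair growth: RHD6 (AT1G66470), RSL1 (AT5G37800), RSL2 (AT4G33880), RSL4 (AT1G27740), LRL3 (AT5G58010), EXP7 (AT1G12560), EXP18 (AT1G62980), COBL9 (AT5G49270), ADF8 (AT4G00680) and PRP3 (AT3G62680). They are 10 of the 27444 protein-coding genes on the numbered chromosomes in the gene table used. The table lists EXP7 as EXPA7, EXP18 as EXPA18 and COBL9 as SHV2. Each gene was read over a window of its annotated body and 2 kb on either side. The choice of genes asked for 2 kb upstream and 1 kb downstream, but the table gives no strand, and a window of 2 kb on either side holds that stretch in either orientation.

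The lists come from ATAC-seq, an assay of open chromatin that inserts sequencing adapters into accessible DNA with a transposase. All 4 groups were Col-0 plants with 2 biological replicates each. Hair cell nuclei and non-hair cell nuclei were captured by INTACT, an affinity purification of biotin-tagged nuclei on streptavidin beads, from the differentiated root zone. The nuclear tag (NTF) was under the ADF8 promoter in the hair cell line and under the GL2 promoter in the non-hair cell line. In both lines the biotin ligase BirA was under the ACT2 promoter. Root tips of 1 cm were purified either by INTACT from plants with UBQ10p:NTF and ACT2:BirA, or by sucrose sedimentation, and the plant line of the sucrose samples is not stated separately. Plant age is not given. The hair and non-hair lines therefore carry an added copy of the promoter that drives their tag, which for hair cells belongs to 1 of the 10 genes.

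Root hairs are tubular outgrowths of epidermal cells that take up water and nutrients. The basic helix-loop-helix proteins RHD6 and RSL1 act early in hair-forming cells, and RSL2 and RSL4, related proteins that act after them, control how long the hair grows. LRL3 belongs to another branch of basic helix-loop-helix proteins with roles in hair growth. Tip growth then needs wall proteins such as the expansins EXP7 and EXP18, the proline-rich protein PRP3 and the membrane-anchored COBL9, and turnover of actin filaments, to which actin depolymerizing factors such as ADF8 contribute.

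At 9 of the 10 genes the hair and non-hair lists overlapped in covered length, the base pairs of a gene's window that lie inside regions. ADF8 alone had more covered length in both hair lists than in both non-hair lists. That is 1 of 10 genes, beside 3.89% of all genes. None of the 10 had less in both hair lists than in both non-hair lists, beside 1.32% of all genes. A region lay in both hair lists at 8 of the 10 genes, against 85.9% of all genes, and in both non-hair lists at the same 8 genes, against 82.4% of all genes. No gene of the 10 had a region in both hair lists and in no non-hair list (0.135% of all genes) or the reverse (0.0364%). The count of 1 depended on single lists. Leaving out hair replicate 2 gave 5 genes, and leaving out non-hair replicate 1 gave 4. Leaving out a list loosens the rule for every gene, and no share of all genes is given for these counts. They are therefore no result about root hair genes.

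**Figure D1:**
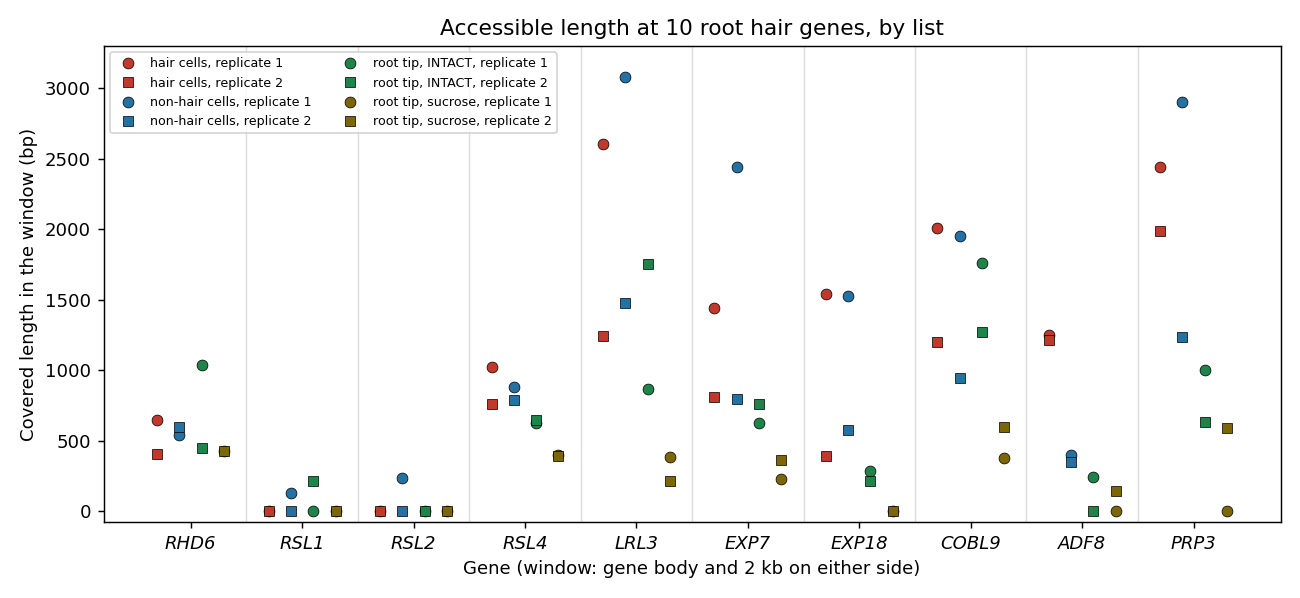
Covered length in base pairs (vertical axis) in the window of each of the 10 genes (horizontal axis), with 1 point per list and colours for the groups. At ADF8 the hair lists, at 1251 bp and 1210 bp, lie clear of the non-hair lists at 396 bp and 350 bp, whereas at the other 9 genes the hair and non-hair lists overlap.

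ADF8 had a single region in each epidermal list, and that region was about 3 times as wide in hair cells. It was 1251 bp and 1210 bp wide in the hair lists, 396 bp and 350 bp in the non-hair lists, 243 bp in INTACT root tip replicate 1 and 140 bp in sucrose root tip replicate 2. INTACT root tip replicate 2 and sucrose root tip replicate 1 listed no region there. Every epidermal region crossed the higher-numbered end of the gene. In TAIR10 numbering the hair regions lay at chr4:280236-281486 and chr4:280257-281466, and the non-hair regions at chr4:280814-281209 and chr4:280857-281206. The hair regions held the non-hair regions whole and reached further on both sides.

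Replicates gave nearly the same edges at ADF8. The edges of the 2 hair regions were 21 bp apart on the lower side and 20 bp apart on the higher side. Between hair and non-hair cells of the same replicate number the lower edges were 578 bp and 600 bp apart, and the higher edges 277 bp and 260 bp apart. In the hair lists 837 bp and 816 bp of the region lay inside the gene, and 414 bp and 394 bp lay past its higher-numbered end. Of all regions on the numbered chromosomes, 99.0% and 99.5% were narrower than the ADF8 region in the hair lists, and 71.2% and 68.6% were narrower in the non-hair lists.

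Covered length at ADF8 averaged 1230.5 bp in hair cells and 373 bp in non-hair cells, a ratio of 3.30. With 2 lists against 2 no exact two-sided permutation test can give a p below 0.333, so single genes were not tested. Instead each gene was given a gap, the lowest hair value minus the highest non-hair value. The gap of 814 bp at ADF8 was the largest of all 27444 genes in these windows, and its rank lay between 1 and 14 over the 8 other ways of drawing windows or selecting regions. AT4G00670, the neighbour whose window holds the same region in part, had a gap of 557 bp, the 5th largest.

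A gap in the opposite direction was found at GL2, a homeobox regulator of the non-hair fate, whose promoter drives the tag in non-hair cells. GL2 had 1303 bp and 981 bp covered in the hair lists and 4276 bp and 2314 bp in the non-hair lists, and no region in the 4 root tip lists. Its gap of 1011 bp was the largest of all genes in the non-hair direction. The rank was 1 in 6 of the 8 other settings, and 15 and 18 in the settings that kept 1 kb on the lower side. On that side non-hair replicate 1 held a region of 2603 bp and non-hair replicate 2 regions of 1891 bp and 646 bp. The widest hair regions there were 368 bp and 254 bp. At ADF8 most of each hair region lay inside the gene instead, and without strand it was not placed against the promoter. UBQ10, whose promoter drives the tag in INTACT root tips, had at least 3513 bp covered in those lists. In the epidermal lists UBQ10 had at most 2972 bp, and it ranked 12th of all genes by that difference. In sucrose root tips it had 2328 bp and 2242 bp, inside the epidermal range. The sucrose lists are shorter, with 11702 and 15813 regions against 23288 and 23690 in INTACT root tips, so these values are not like for like. ACT2, whose promoter is in both epidermal lines, had 3184 bp and 2501 bp covered in hair cells, which lay within the 4057 bp and 2091 bp of non-hair cells. It had 2858 bp and 3098 bp in INTACT root tips and 1912 bp and 1706 bp in sucrose root tips. The wider regions at ADF8 in hair cells move with the cell type and with the added promoter copy, and these cannot be told apart in this design.

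**Figure D2:**
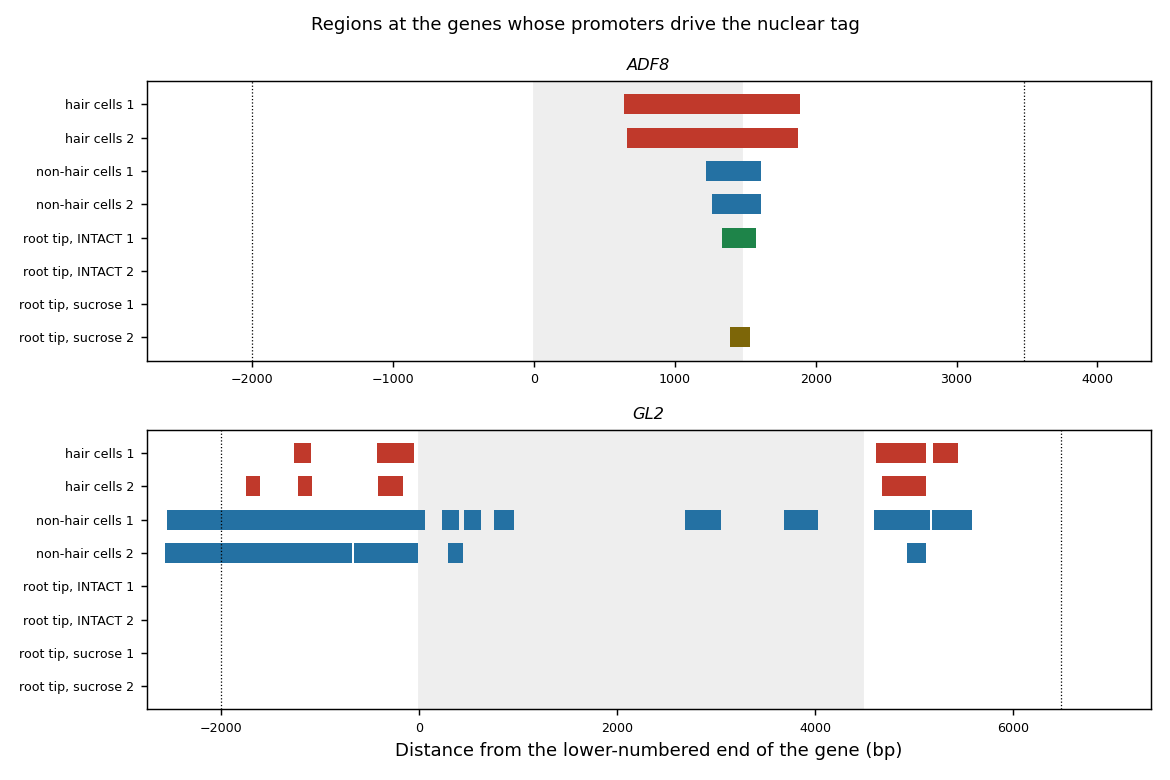
Regions of the 8 lists (bars, 1 row per list) at ADF8 and GL2, by distance in base pairs from the lower-numbered end of the gene, with the gene body shaded and the window ends dotted. The 2 hair bars at ADF8 share their edges within 21 bp and hold the non-hair bars whole, and at GL2 the widest bars are those of the non-hair lists below the gene.

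**Figure D3:**
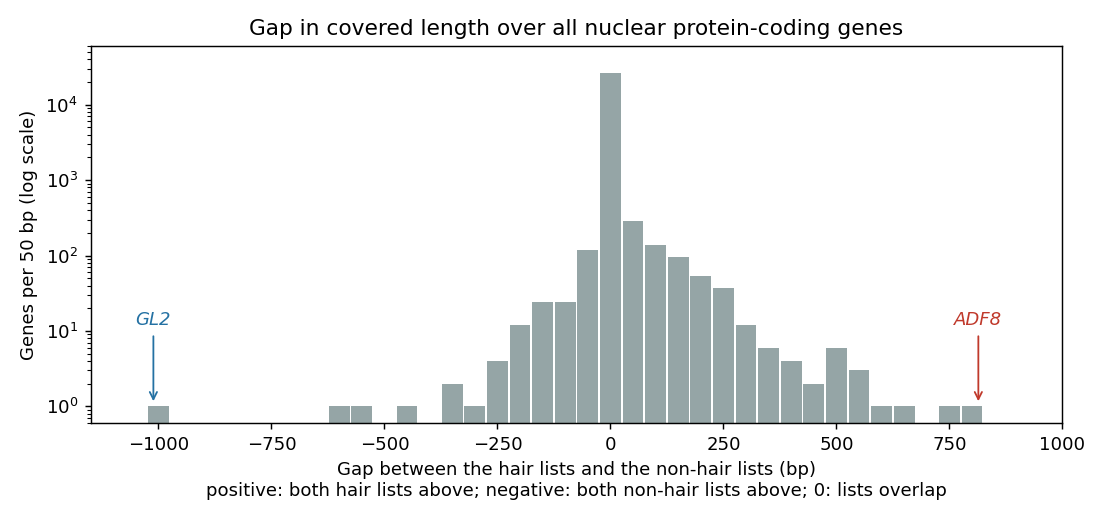
Number of genes (log scale) by the gap in covered length between hair and non-hair lists, in base pairs and bins of 50 bp, over 27444 genes. Genes whose hair and non-hair lists overlap are at 0, ADF8 is at the far right with 814 bp and GL2 at the far left with −1011 bp.

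Among the early regulators, RHD6 had an open region in every list and RSL1 almost none. The RHD6 site shared by all 8 lists lay between 309 bp and 903 bp beyond its higher-numbered end. RHD6 had 644 bp and 402 bp covered in hair cells, 536 bp and 594 bp in non-hair cells, 1037 bp and 447 bp in INTACT root tips, and 424 bp and 422 bp in sucrose root tips. The hair values overlapped both the non-hair and the INTACT root tip values. The shared region was 390 bp and 402 bp wide in the hair lists and 405 bp and 395 bp in the non-hair lists, at chr1:24797459-24797848 in hair replicate 1. RSL1 had no region in either hair list. It had 131 bp in non-hair replicate 1, 211 bp in INTACT root tip replicate 2, and none in the 4 remaining lists.

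Of the later regulators, RSL4 was accessible in all groups and RSL2 was not. RSL4 had 1019 bp and 758 bp covered in hair cells, 881 bp and 789 bp in non-hair cells, 627 bp and 648 bp in INTACT root tips, and 400 bp and 387 bp in sucrose root tips. Both epidermal groups lay above both root tip groups, and hair and non-hair cells overlapped. All 8 lists shared a site across the lower-numbered end of RSL4 and another more than 1 kb beyond its higher-numbered end, which reaches the neighbouring gene AT1G27750. RSL2 had regions in non-hair replicate 1 alone, with 236 bp covered inside the window, and none in both hair lists or in any root tip list. The absence of a listed region at RSL1 and RSL2 has no depth behind it, since the lists give no read counts.

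LRL3 lay in a dense stretch with 4 other genes in its window. It had 2606 bp and 1242 bp covered in hair cells, 3079 bp and 1473 bp in non-hair cells, 868 bp and 1756 bp in INTACT root tips, and 380 bp and 212 bp in sucrose root tips. Groups overlapped except that the sucrose lists lay below all others. A site over the lower-numbered end of LRL3 was shared by all 8 lists. Within it non-hair replicate 1 had an unbroken region of 1534 bp, which was split into several regions in hair replicate 1 and in non-hair replicate 2.

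Of the wall genes, the expansins had more covered length in both epidermal groups than in INTACT root tips. EXP7 had 1440 bp and 808 bp covered in hair cells, 2439 bp and 793 bp in non-hair cells, 622 bp and 757 bp in INTACT root tips, and 224 bp and 362 bp in sucrose root tips. The hair values lay inside the non-hair range. A narrow site from −362 bp to −163 bp relative to the lower-numbered end of EXP7 was present in all 4 epidermal lists and in no root tip list. It was 194 bp and 177 bp wide in hair cells and 199 bp and 152 bp in non-hair cells. On the numbered chromosomes INTACT root tip replicate 1 listed no region narrower than 191 bp, and replicate 2 none narrower than 211 bp. The narrowest regions in the sucrose root tip lists were 150 bp and 140 bp. A site as narrow as this could go unlisted in INTACT root tips, so its absence there is not read as closed chromatin.

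EXP18 had 1538 bp and 389 bp covered in hair cells, 1528 bp and 575 bp in non-hair cells, and 286 bp and 211 bp in INTACT root tips, with no region in its window in sucrose root tips. Replicates of 1 cell type therefore differed far more than the cell types did. A site between 1262 bp and 1557 bp beyond its higher-numbered end was found in the 4 epidermal lists and in no root tip list. This site lies within the body of the neighbouring gene AT1G62981. Its regions in hair replicate 2 (142 bp) and non-hair replicate 2 (152 bp) were narrower than any region of the INTACT root tip lists.

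PRP3 had the most covered length of the wall genes in hair cells, and COBL9 differed least between epidermis and INTACT root tip. PRP3 had 2441 bp and 1988 bp covered in hair cells, 2901 bp and 1236 bp in non-hair cells, 1002 bp and 633 bp in INTACT root tips, and 586 bp in sucrose replicate 2 with no region in sucrose replicate 1. A site from −710 bp to −116 bp relative to its lower-numbered end was present in all 4 epidermal lists and in no root tip list. COBL9 had 2010 bp and 1200 bp covered in hair cells, 1952 bp and 943 bp in non-hair cells, 1759 bp and 1272 bp in INTACT root tips, and 379 bp and 595 bp in sucrose root tips. Its hair values overlapped those of non-hair cells and of INTACT root tips. COBL9, EXP7 and PRP3 are known hair cell genes, and by covered length none of them set hair lists apart from non-hair lists, nor did WER (MYB66), a regulator of the non-hair fate (326 bp and 267 bp in hair cells, 614 bp and 236 bp in non-hair cells). Covered length is not an RNA level.

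**Figure D4:**
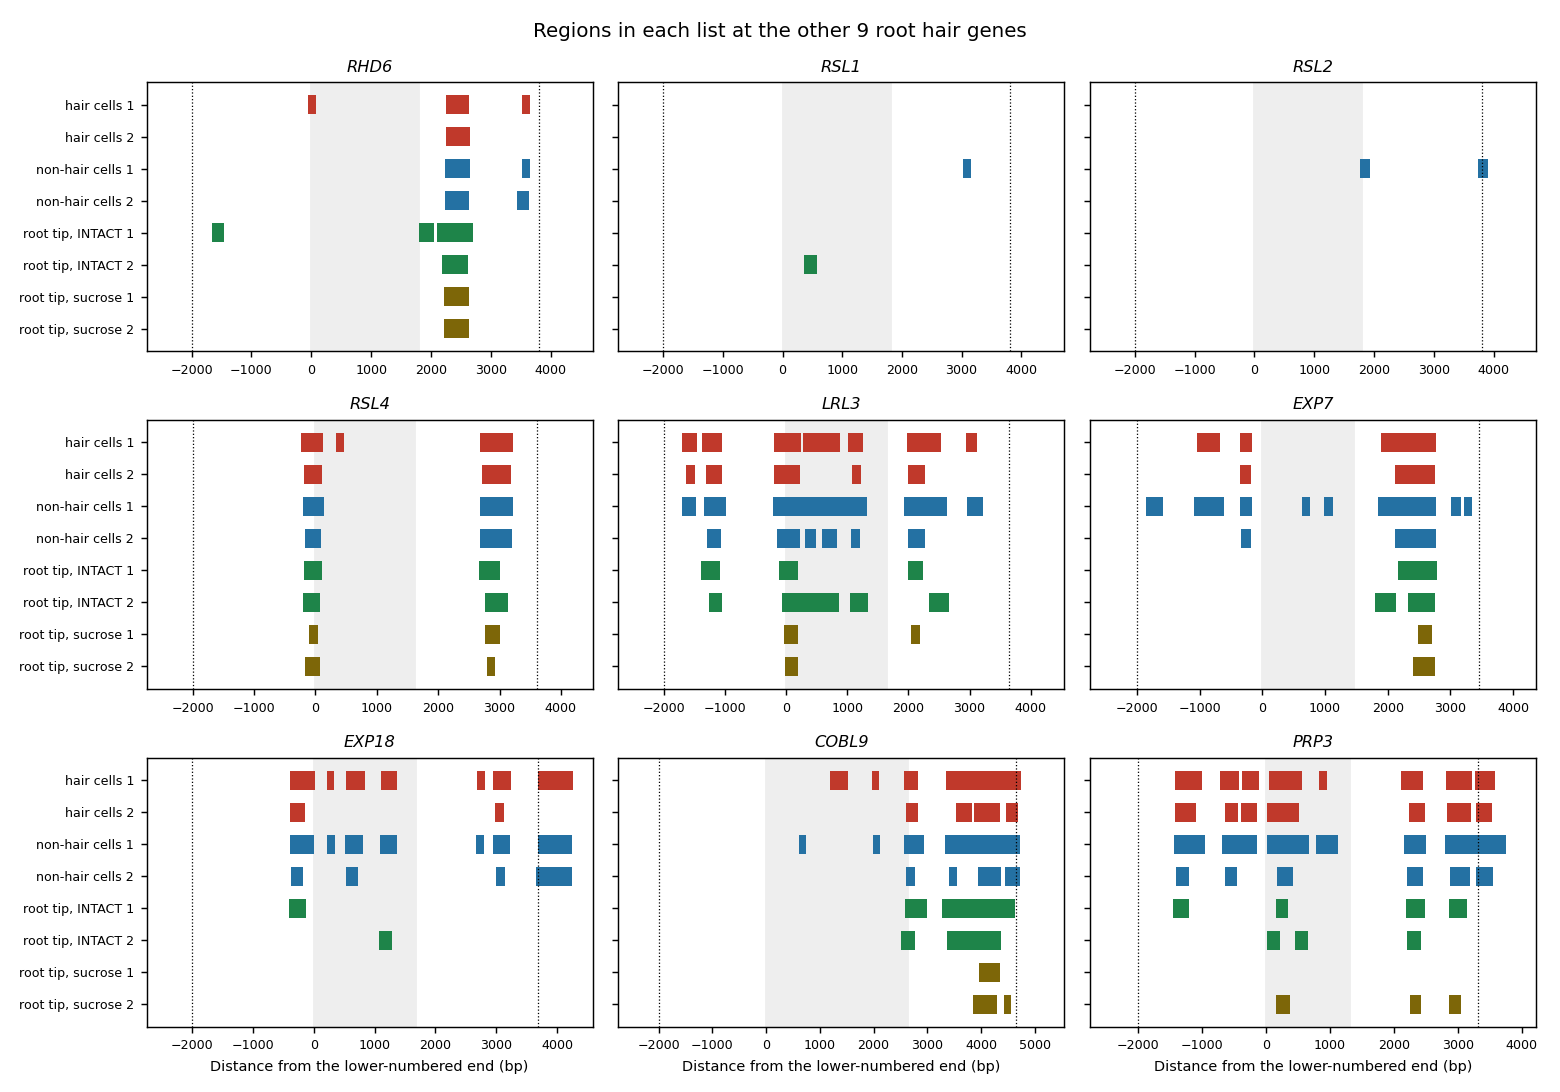
Regions of the 8 lists (bars, 1 row per list) at the 9 genes other than ADF8, by distance in base pairs from the lower-numbered end, with gene bodies shaded and window ends dotted. RHD6, RSL4, LRL3, EXP7 and COBL9 have a bar in all 8 lists, RSL1 and RSL2 are nearly empty, and EXP7, EXP18 and PRP3 have bars in the epidermal lists that the root tip lists lack.

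Over all 10 genes, hair and non-hair cells differed by less than their replicates. The windows held 36 and 24 regions in hair cells, 38 and 28 in non-hair cells, 17 and 16 in INTACT root tips, and 7 and 11 in sucrose root tips. Covered length was 12949 bp and 7997 bp in hair cells, 14079 bp and 6753 bp in non-hair cells, 6444 bp and 5935 bp in INTACT root tips, and 1807 bp and 2704 bp in sucrose root tips. It averaged 10473 ± 3502 bp in hair cells and 10416 ± 5180 bp in non-hair cells (SD, n = 2 each), a log2 ratio of 0.0079 against a pooled replicate SD of 0.634 (exact permutation p = 1). The number of regions averaged 30 ± 8.49 in hair cells and 33 ± 7.07 in non-hair cells (SD, n = 2 each; log2 ratio −0.14, exact permutation p = 0.667). Both ratios changed sign with the settings and lists described in the closing section. Median widths of the regions at these genes were 326.5 bp and 270 bp in hair cells and 315 bp and 248 bp in non-hair cells.

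Both epidermal groups had more regions and more covered length at these genes than INTACT root tips, and the log2 ratios were smaller in lists cut to equal length. The ratio to the 6189.5 ± 360 bp of INTACT root tips (SD, n = 2) was 1.69 for hair cells and 1.68 for non-hair cells. The log2 ratios were 0.76 and 0.75, and both lists of each epidermal group lay above both root tip lists. All genes moved the same way. Among genes covered in both groups, the median log2 ratio of hair cells was 0.63 over 8 of the 10 genes and 0.82 over 21582 genes in all. For non-hair cells it was 0.79 over 9 of the 10 genes and 0.79 over 21472 genes in all. The exact permutation p was 0.333 for both, the smallest possible, or 0.533 after Benjamini-Hochberg adjustment over 8 tests. Without hair replicate 1 the first log2 ratio was 0.37, and the second was 0.13 without non-hair replicate 1 and 1.19 without non-hair replicate 2. The non-hair lists no longer lay clear of the root tip lists in 5 of the 8 other settings, namely trimmed windows (log2 ratio 0.57), regions of at least 300 bp (0.79), equal numbers of the widest regions (0.34), 1 kb on either side (0.71) and 2 kb on the lower with 1 kb on the higher side (0.73). For hair cells both lists lay above both root tip lists in all 8, with log2 ratios between 0.39 and 0.95. Numbers of regions gave log2 ratios of 0.86 for hair cells and 1 for non-hair cells, with the same p, and the ratio for hair cells was 0.54 without hair replicate 1. When each list was cut to its 11702 widest regions, covered length gave log2 ratios of 0.39 for hair cells and 0.34 for non-hair cells. Those of the number of regions were then 0.18 for hair cells and 0.26 for non-hair cells, with overlapping lists (exact permutation p = 0.667 and p = 1).

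By gene, 5 of 10 had more covered length in both hair lists than in both INTACT root tip lists, against 53.5% of all genes, and none had less, against 1.37%. The 5 were RSL4, EXP7, EXP18, ADF8 and PRP3. The same 5 genes did so in non-hair cells, against 43.3% of all genes, and none had less, against 2.39%. Both comparisons share the root tip lists. These shares lie near those of all genes, so they are no result about root hair genes. The count for hair cells was 3 under 5 of the other settings, for which no share of all genes is given. A region lay in both INTACT root tip lists at 7 of the 10 genes (60.1% of all genes) and in both sucrose root tip lists at 5 (47.6% of all genes). The lists differ in length, with 52373 and 35679 regions on numbered chromosomes in hair cells, 52278 and 31212 in non-hair cells, 23288 and 23690 in INTACT root tips, and 11702 and 15813 in sucrose root tips. The values in lists cut to equal length are given above.

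To set the 10 genes against all genes of the same list, their covered share was divided by the mean share over all gene windows. The 10 windows were 22.6% and 14.0% covered in hair cells, 24.6% and 11.8% in non-hair cells, 11.2% and 10.4% in INTACT root tips, and 3.15% and 4.72% in sucrose root tips. Divided by the mean of all genes these shares were 1.25 and 1.20 in hair cells, 1.30 and 1.17 in non-hair cells, 1.37 and 1.30 in INTACT root tips, and 0.991 and 1.12 in sucrose root tips. Gene length was not matched, and the 10 genes were 1321 bp to 2647 bp long. It can enter these shares, since in hair replicate 1 the 1 kb outside gene ends was 17.0% covered and the 1 kb inside 12.8%. Relative to all genes the root hair genes were covered somewhat less in these hair lists than in these INTACT root tip lists. This was not particular to hair cells. Both non-hair lists, at 1.297 and 1.170, also lay below both INTACT root tip lists, at 1.367 and 1.302, and that comparison was not tested. For hair cells against INTACT root tips the log2 ratio was −0.12 against a pooled SD of 0.0465. The exact permutation p was 0.333, the smallest possible, or 0.533 after Benjamini-Hochberg adjustment over 8 tests. With regions of at least 300 bp alone this ratio was 0.068, with windows trimmed at neighbouring genes it was −0.27, and without ADF8 it was −0.28. The lists overlapped with equal numbers of the widest regions (−0.065), with 1 kb on either side (−0.12) and with 2 kb on the lower and 1 kb on the higher side (−0.091). Between hair and non-hair cells the log2 ratio was −0.0063 (exact permutation p = 1).

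**Figure D5:**
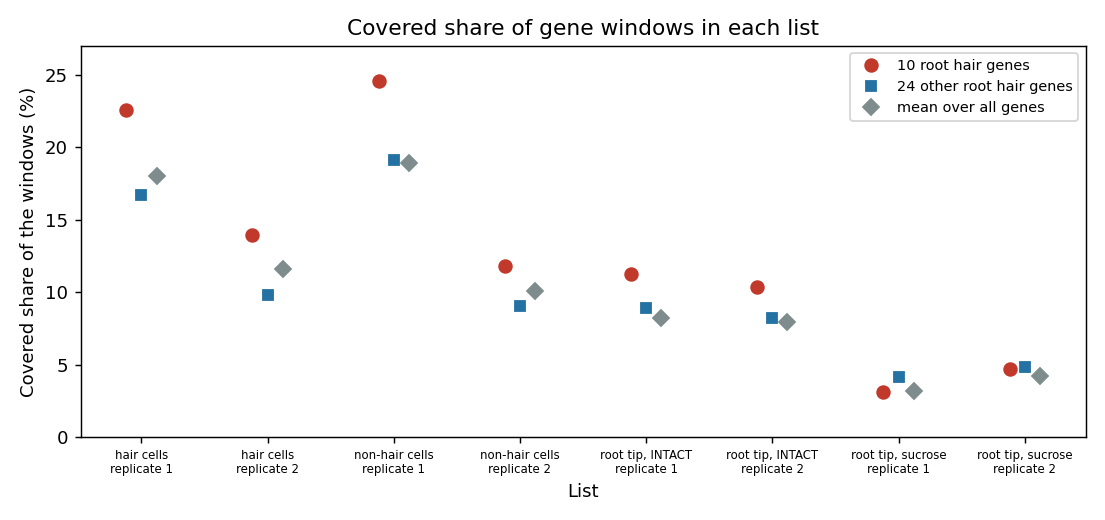
Covered share in percent (vertical axis) of the 10 windows together, of the windows of 24 other root hair genes together, and the mean share over all gene windows, in each of the 8 lists. The 10 genes lie above the mean of all genes in every list except sucrose root tip replicate 1, and all 3 series are lowest in the sucrose root tip lists. Gene length is not matched between the series.

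Regions of the 8 lists that overlapped were joined into sites, of which 44 touched the 10 windows. All 8 lists shared 7 of them (15.9%, against 13.6% of 61830 sites on the numbered chromosomes), at RHD6, RSL4, LRL3, EXP7, EXP18 and COBL9. The site at EXP18 lies at the edge of the window, and 5 of its lists, all root tip lists among them, have their region just outside. All 4 epidermal lists shared 19 of the 44 sites (43.2%, against 40.9%), and 3 of those 19, at EXP7, EXP18 and PRP3, were in no root tip list (6.82% of the 44 sites, against 9.82%). The INTACT root tip lists hold no regions as narrow as some epidermal regions, as given at EXP7, so narrow sites are compared unequally. No site was in both hair lists and in neither non-hair list, against 0.776% of all sites. A single list held 15 sites (34.1%, against 26.9%).

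Of 24 other genes with roles in root hairs, none had more covered length in both hair lists than in both non-hair lists, and none had less, beside the 3.89% and 1.32% of all genes. Against INTACT root tips, 12 of 24 had more in both hair lists (53.5% of all genes) and 11 of 24 in both non-hair lists (43.3% of all genes). The 24 windows together were 16.7% and 9.84% covered in hair cells, below the mean of all genes at 18.0% and 11.6%. In non-hair cells they were 19.1% and 9.06% covered, on either side of the mean of all genes at 18.9% and 10.1%. Gene length was not matched here either. Among genes covered in both cell types, the median log2 ratio of hair to non-hair cells was −0.011 over 8 of the 10 genes, −0.10 over 23 of the 24 other genes and 0.030 over 24822 genes in all. No gene of the 24 met the rule for naming, and the following 3 were picked for their known roles after their values were seen. RHD2, the NADPH oxidase of growing hairs, had 3081 bp and 1978 bp covered in hair cells and 3738 bp and 1804 bp in non-hair cells. CSLD3, a cellulose synthase-like protein of the hair tip, had 846 bp and 580 bp in hair cells and 1579 bp and 423 bp in non-hair cells. COW1, a phosphatidylinositol transfer protein, had 324 bp and 359 bp in hair cells and 334 bp and 152 bp in non-hair cells, and no region in the 4 root tip lists. Hair and non-hair values of all 3 overlapped.

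Genes with the most similar covered length over the 8 lists were looked up for RHD6 and ADF8 by Bray-Curtis distance, which is 0 for identical values. For RHD6 they were AT2G19880 (0.0496), AT1G30090 (0.0605) and MYB79 (0.0669). For ADF8 they were PORB (0.143), RAC10 (0.144) and BSU1 (0.156), at larger distances. PORB had 1123 bp and 986 bp covered in hair cells and 863 bp and 304 bp in non-hair cells, a smaller separation than at ADF8.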

How the data were processed

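The authors deposited 1 list of open regions per sample, holding 3 columns of positions (chromosome, start, end) and neither score nor read count, so depth is unknown. Bowtie2, HOMER and the builds TAIR10 and IRGSP-1.0 are named in the submitters' processing notes, and versions, filters and settings are not given in the sources used here. The 8 Arabidopsis lists were used and 7 of the 15 samples were not analysed here.

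Gene positions came from a RefSeq table of TAIR10.1 without strand, which was taken to share the numbering of TAIR10 on the nuclear chromosomes. In all 8 lists covered share around gene ends peaked in the 100 bp just outside the gene. Gene coordinates are not printed, and region coordinates are those of the lists, counted from 1. A region counted in a window when they shared 1 bp, and covered length was clipped to the window. Of the 10 windows, 3 held no other gene body. Group values were compared by exact two-sided permutation of lists. The members and the gene lists were chosen with earlier results of these data known. The rule for naming took all 10 members and any of the 24 other genes whose hair and non-hair lists do not overlap. It also took the 3 genes nearest to RHD6 and to ADF8, and the genes whose promoters are in the transgenes. WER was added as a marker of non-hair cells. AT4G00670, AT1G27750, AT1G62981 and GC5 were named as neighbours. RHD2, CSLD3, COW1, ZFP3, BPS1 and AT5G26640 were named outside the rule after their values were seen. Because strand was lacking, the designed count of genes with a region upstream was replaced by a count over the whole window. No label gives a batch. The interval routines were tested on simulated lists. Python 3.11.15, NumPy 2.4.6, pandas 2.3.3 and Matplotlib 3.10.9 were used.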

Additional observations from a re-analysis of the deposited data

How the results depend on the processing

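Of 173 alternative values of 13 results, 146 stayed on the same side or within the spread, 12 moved and 15 changed sign. The 146 are not all unchanged. They include the log2 covered length of non-hair cells against INTACT root tips without non-hair replicate 1 (0.13). They also include the count of 8 genes with a region in both hair lists. That count was 6 with the widest regions, and 7 with trimmed windows or with regions of at least 300 bp. No share of all genes is given under these settings, so the lower counts are no result about root hair genes. For the log2 covered length of hair against non-hair cells (0.0079) the sign changed with region midpoints (−0.019) and without ADF8 (−0.12), and single lists left out gave −0.43 to 0.63. For the number of regions (−0.14) it changed with regions of at least 300 bp (0.15), and single lists gave −0.46 to 0.13. For the share relative to all genes (−0.0063) it changed with windows trimmed at neighbouring genes (0.012), regions of at least 300 bp (0.26), the 11702 widest regions of each list (0.14), 1 kb on either side (0.069) and 2 kb on the lower with 1 kb on the higher side (0.070), and single lists gave −0.079 to 0.070. Hair against INTACT root tips by that share changed sign with regions of at least 300 bp (0.068). Genes above in both hair lists against non-hair lists were 0 without ADF8 and 1 to 5 with single lists left out. Against INTACT root tips they were 3 with trimmed windows, with regions of at least 300 bp, with the widest regions, with 1 kb on either side and with 2 kb on the lower with 1 kb on the higher side. The cause was not tested, and no share of all genes is given for these counts. At ADF8 the log2 ratio stayed between 1.58 and 2.81. Settings of flanks and without ADF8 were chosen after seeing the data, and windows of 1 kb upstream with 0.5 kb downstream or upstream alone were not run for lack of strand.

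No label says that replicate numbers pair samples. The differences between replicates 1 and 2 correlated at 0.447 across genes between hair and non-hair cells and at −0.198 between hair cells and INTACT root tips. With the replicate number as a block, the log2 covered length of hair against non-hair cells was 0.062 and that of hair against INTACT root tips 0.72, and no sign changed. Within both numbers hair cells were above non-hair cells at 2 of the 10 genes, COBL9 and ADF8 (26.5% of all genes), and below at LRL3 (14.2% of all genes).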

Other observations

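After ADF8, the genes with the largest gap of both hair lists above both non-hair lists were ZFP3, a zinc finger protein, at 744 bp, BPS1 at 648 bp and AT5G26640 at 617 bp. ZFP3 had 3209 bp and 2641 bp covered in hair cells and 1897 bp and 545 bp in non-hair cells. BPS1 had 3550 bp and 2390 bp in hair cells and 1742 bp and 887 bp in non-hair cells. AT5G26640 had 739 bp and 617 bp in hair cells and no region in the window in either non-hair list or in any root tip list. In the other direction GL2 was followed by its neighbour GC5, whose window holds part of the same regions, with 1811 bp and 1716 bp covered in hair cells and 3426 bp and 2420 bp in non-hair cells. These genes were picked by their values and were not tested.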
